A study of Mus musculus with 18 samples.

Results

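The 48 genes described here encode smooth muscle contractile proteins and the actin cytoskeleton, and were taken by gene symbol from the 54532 genes of a single count table. They comprised 6 actins, 5 calponins and transgelins, 7 tropomyosins and other thin filament regulators, 6 genes of myosin II and its kinase, 2 intermediate filament genes, 10 crosslinking, capping and focal adhesion genes, 10 LIM domain genes and 2 transcription factors. Of these, 43 had enough counts to be tested, among 14317 genes tested in all. RNA-seq was performed on CH310T1/2 cells (10T1/2), a mouse multipotent fibroblast line that can enter the adipocyte lineage. The 18 libraries fell into 6 groups of 3, with 3 genotypes (WT, FOXS1 KO clone 1 and FOXS1 KO clone 2) each either left uninduced (labelled Control) or stimulated. Stimulation was with TGF-β1 (1 nM, 12 h), after which DMII was applied for 48 h. The methods describe overnight serum starvation before TGF-β1 and place adipogenic induction at 2 days after confluence. DMII is an adipogenic cocktail of indomethacin, insulin, isobutylmethylxanthine and dexamethasone, so the effects of TGF-β1 and of DMII cannot be told apart here. Each KO clone was grown from a single cell after co-transfection of 2 guide RNA constructs and puromycin selection, so each KO genotype stands for 1 clonal line. The WT libraries serve as controls for each clone. The sources used here do not say that the WT cells were transfected, selected or cloned. Effects of those steps therefore cannot be told apart from those of the KO. The sources used here do not say that the 3 libraries of a group came from separate cultures, so p-values measure only the spread between these libraries, which may be technical.

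*Foxs1*, the targeted gene, was counted in every library. Its counts separated the libraries labelled KO from WT without overlap, and were higher, not lower, in those labelled KO. It lay at 1.64 to 3.25 CPM (counts scaled to library size with TMM factors) in the 6 WT libraries, at 23.4 to 56.8 CPM in the 6 libraries labelled clone 1 and at 21.1 to 42.8 CPM in the 6 labelled clone 2. A gene total does not show an edited allele, so the direction of every clone comparison rests on the labels, and "clone 1" and "clone 2" mean the libraries labelled so throughout.

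Contraction in smooth muscle cells and myofibroblasts depends on filaments of actin that are wrapped by tropomyosin and pulled by myosin II. Calponin, transgelin, caldesmon and smoothelin bind these filaments, while α-actinin, filamin, zyxin, vinculin and the LIM domain proteins anchor and crosslink them in stress fibers and focal adhesions. Many genes of this set are targets of serum response factor (SRF) with its cofactors myocardin and the MRTFs, which are released to the nucleus as monomeric actin is built into filaments. TGF-β1 is a well known inducer of α-smooth muscle actin (*Acta2*) and stress fibers in fibroblasts, whereas adipocyte differentiation is accompanied by loss of stress fibers.

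SRF binds a CArG box, 10 bases that begin with CC, hold only A and T in the middle 6 and end with GG. RefSeq promoters (GRCm38.p6, 250 bases before to 50 after the start) matched 42 of the 48 genes by symbol. An exact CArG box on either strand lay in the promoters of 10 of these 42 genes (23.8%), against 488 of the 27025 genes with a promoter (1.81%). The 10 were *Acta1*, *Actc1*, *Actg1*, *Cnn2*, *Fhl1*, *Fhl2*, *Myl6*, *Myl9*, *Srf* and *Vcl*. Counted by promoter, since some genes have several, the box lay in 11 of 51 (21.6%) against 535 of 32851 (1.63%). A 10-mer that differs from the box by exactly 1 base is common, with 16 of 51 member promoters (31.4%) and 19.9% of all promoters. The forkhead letters TGTTTAC (reverse complement GTAAACA) lay in 1 member promoter, that of *Cald1* (1.96%, against 3.65% of all), and the palindrome GTCTAGAC, a SMAD binding element, in none (0.213% of all). The bases before the start of 4 genes whose response differed between the genotypes are shown because they carry these letters, with CArG matches in capitals. *Actg1*, *Cnn2* and *Myl9* hold an exact box, and the pair of capital runs in *Acta2* each differ from it by 1 base. *Myl9* also holds a 10-mer that differs by 1 base, at positions -99 to -90, which is left in lower case. All 4 read 5′ to 3′ on the gene's own strand, at chr19:34255374-34255623 (minus) for *Acta2*, chr11:120348496-120348745 (minus) for *Actg1*, chr10:79988350-79988599 (plus) for *Cnn2* and chr2:156775214-156775463 (plus) for *Myl9*.
Acta2: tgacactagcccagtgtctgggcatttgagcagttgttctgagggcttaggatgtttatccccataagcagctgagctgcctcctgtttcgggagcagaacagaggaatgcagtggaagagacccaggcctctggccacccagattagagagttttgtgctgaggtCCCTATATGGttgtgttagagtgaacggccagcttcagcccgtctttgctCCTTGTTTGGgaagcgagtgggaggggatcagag
Actg1: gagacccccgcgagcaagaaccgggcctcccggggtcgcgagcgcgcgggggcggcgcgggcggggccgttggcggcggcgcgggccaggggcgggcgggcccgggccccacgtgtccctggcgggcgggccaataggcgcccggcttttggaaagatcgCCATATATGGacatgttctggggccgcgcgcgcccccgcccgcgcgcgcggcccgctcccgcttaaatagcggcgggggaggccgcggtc
Cnn2: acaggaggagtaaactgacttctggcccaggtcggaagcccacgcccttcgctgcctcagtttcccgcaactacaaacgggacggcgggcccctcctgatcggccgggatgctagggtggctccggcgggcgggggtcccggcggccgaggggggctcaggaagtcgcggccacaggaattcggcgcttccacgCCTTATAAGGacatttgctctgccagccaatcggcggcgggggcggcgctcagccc
Myl9: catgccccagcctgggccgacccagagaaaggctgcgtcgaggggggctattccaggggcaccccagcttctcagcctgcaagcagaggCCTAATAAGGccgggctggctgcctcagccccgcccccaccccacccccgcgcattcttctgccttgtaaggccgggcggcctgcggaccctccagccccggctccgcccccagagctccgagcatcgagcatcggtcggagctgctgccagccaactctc

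The capitals sit at positions -84 to -75 and -34 to -25 in *Acta2*, -90 to -81 in *Actg1*, -56 to -47 in *Cnn2* and -161 to -152 in *Myl9*, counted from the first base of the RefSeq start as 0. A match of letters is a description of the sequence and not evidence of a bound site. *Actb*, *Actg2*, *Csrp2*, *Myh11*, *Myocd* and *Tagln* had no entry in the promoter table.

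Library totals ran from 15576685 to 42005596 counts, so that 3 counts, taken as the limit of what a count of 0 allows, equal 0.0354 to 0.0603 CPM. Fibroblast markers had counts for 8 of 8 genes in every group. Of 10 striated muscle markers, 5 to 7 had counts in each group, and *Myf5* and *Ckm* were at 0 in every library. *Myod1* and *Myog* had counts in uninduced clone 2 only. Summed over the 10 markers, the libraries held 0.70 to 3.03 CPM. In each clone 2 group 1 marker reached a mean of 1 CPM, and in the WT and clone 1 groups none did. Summed adipocyte markers stood at 151 to 160 CPM before and 56.9 to 61.8 CPM after stimulation in WT libraries. They were higher after stimulation in clone 1 (111 to 114 CPM before, 207 to 231 CPM after). In clone 2 they were lower after it (81.7 to 86.8 CPM before, 58.7 to 68.3 CPM after). In these bulk libraries fewer contractile cells and less RNA per cell cannot be told apart. Counting could also blur 4 members whose exons lie by more than 10% under another gene, namely *Tagln* (67.9%, all under opposite-strand genes), *Vcl* (25.5%), *Cnn3* (17.7%) and *Smtn* (16.3%). The strand setting of the counting is not given in the sources used here, and *Tagln*, normally among the most abundant smooth muscle transcripts, held only 0 to 19 counts in any library.

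In WT cells, TGF-β1 and DMII stimulation raised 17 of these genes. A gene is called changed here when its Benjamini-Hochberg adjusted p from edgeR's quasi-likelihood test was below 0.05 and its log2 fold change was beyond 1 in size. By this measure 17 of the 43 tested members rose, among 6.25% of all tested genes called higher, and 4 fell, among 13.6% of all called lower. The median member moved by 0.71 on the log2 scale, against -0.04 for all tested genes. Among the 35 members above the minimum of the count filter in all 18 libraries, 14 rose and 2 fell. The 17 were 4 actins (*Acta2*, *Actb*, *Actg1*, *Actg2*), *Cnn2*, *Tpm4*, *Myh9* and *Myl9*, both α-actinins (*Actn1*, *Actn4*) and 7 LIM domain genes (*Csrp1*, *Csrp2*, *Pdlim1*, *Pdlim3*, *Pdlim7*, *Fhl2*, *Fhl3*). The 4 that fell were *Mylk*, *Lmod1*, *Des* and *Vim*. Thus of the 13 tested genes of the narrower smooth muscle contractile list, 4 rose (*Acta2*, *Actg2*, *Myl9*, *Csrp1*) and 3 fell (*Mylk*, *Lmod1*, *Des*). With library totals in place of TMM, the median of all genes in the WT response shifted from -0.04 to -0.26, and the values of *Actb*, *Actg1*, *Myh9*, *Pdlim1* and *Fhl3* fell below the 2-fold line. *Actb* (2 libraries), *Fhl3* (3 libraries) and *Pdlim1* (1 library) also fell below it when single libraries were left out, with log2 fold changes of 0.97 to 1.00, and *Des* lost its call without any of 12 libraries (adjusted p 0.0503 to 0.344).

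The same stimulation gave a different picture in the FOXS1 KO clones. In clone 1, 3 members rose (5.95% of all genes) and 8 fell (10.7% of all), with a median of -0.19 against -0.02. In clone 2, 6 rose (6.46% of all) and 7 fell (11.2% of all), with a median of 0.10 against -0.02. Among the 35 members above the count minimum in every library, 3 rose and 4 fell in clone 1, and 4 rose and 4 fell in clone 2. Their medians were -0.17 and 0.12. In clone 1 the 3 that rose were *Actn4*, *Csrp2* and *Pdlim1*, and in clone 2 the 6 were *Tagln*, *Actn4*, *Csrp2*, *Pdlim1*, *Pdlim3* and *Pdlim7*. The 8 that fell in clone 1 were *Actg2*, *Tpm1*, *Tpm2*, *Myl9*, *Mylk*, *Lmod1*, *Des* and *Vim*, and the 7 in clone 2 were *Tpm1*, *Myh10*, *Myl9*, *Mylk*, *Lmod1*, *Des* and *Vim*. No actin was called higher in either clone. The falls of *Myl9* start from at most 45 counts a library, that of *Des* in clone 1 was lost without any of 4 libraries (adjusted p 0.0633 to 0.0931), and the rise of *Pdlim3* in clone 2 without either of 2 (adjusted p 0.0729 to 0.0807). The rise of *Tagln* in clone 2 rests on 3, 0 and 3 counts before and 8, 11 and 5 after. It was not called with a 1 CPM filter, with glmTreat or in a fit of the compared groups only. *Tagln* passed the count filter only through stimulated WT.

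The change in response was tested directly, as the response in a clone minus the response in WT. In clone 1 the response was lower for 18 of 43 members, where 3.46% of all tested genes had a lower response, and higher for 1, where 5.34% did. In clone 2 it was lower for 12, against 2.96% of all, and higher for 1, against 4.89%. The median differences were -0.83 and -0.54, with -0.01 for all genes in both. The single member with a larger response was *Pdlim1* in each clone. Some members could pass the filter on low counts only through a group in which they were high, so the 35 members above the minimum in all 18 libraries were also counted. Of these 35, 16 had a lower response in clone 1 and 9 in clone 2, with medians of -0.84 and -0.54.

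**Figure D1:**
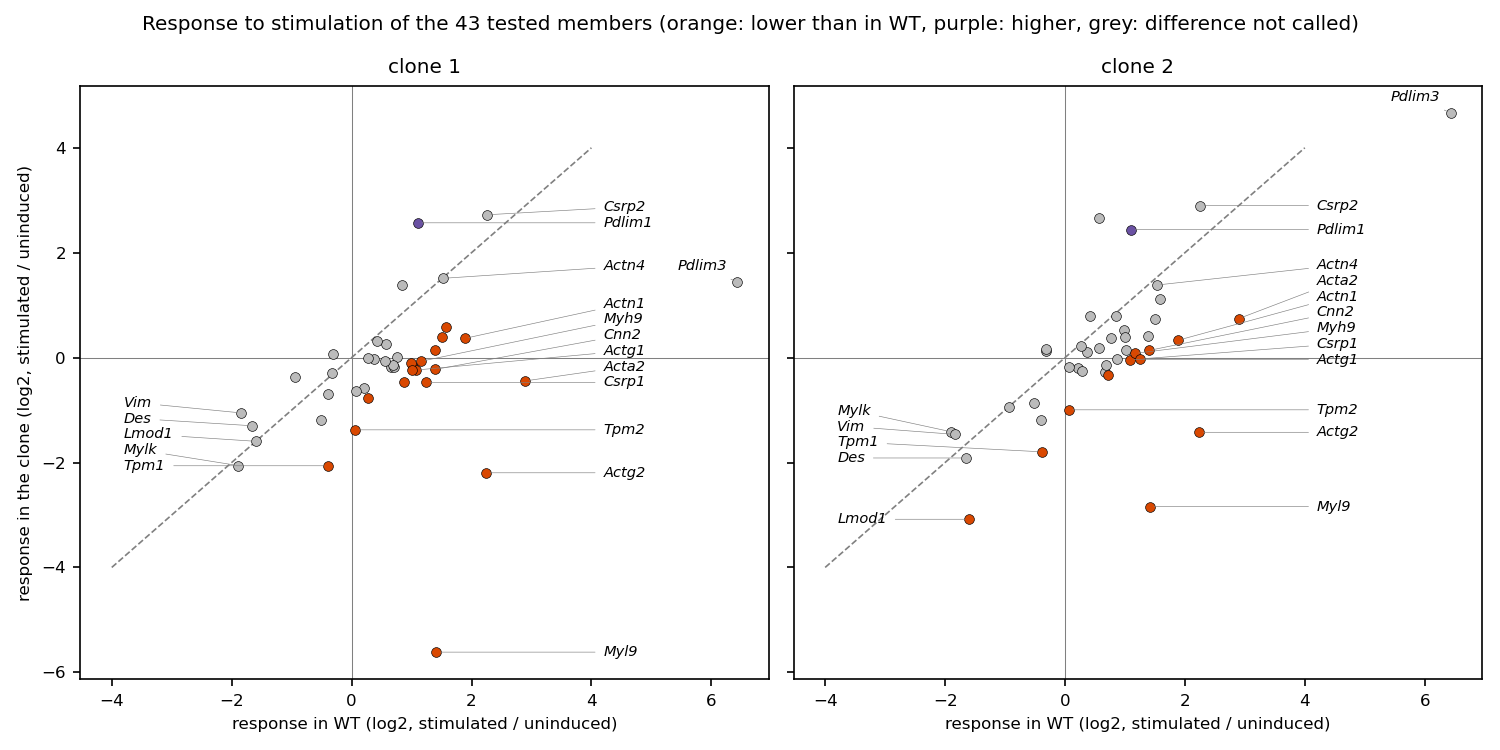
Log2 fold change of each tested member on stimulation in WT cells (horizontal axis) against the same in KO clone 1 (left) or KO clone 2 (right); 1 point is 1 gene, and the dashed line marks equal responses. Orange and purple points are members whose response was called lower or higher than in WT and grey points were not called; *Acta2* lies at 2.89 in WT, -0.44 in clone 1 and 0.74 in clone 2.

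After stimulation, clone 1 held 18 members below WT (9.6% of all genes were called lower) and 2 above (9.42% of all called higher). Clone 2 held 17 below (8.94% of all) and 2 above (7.95% of all). The median member differed by -0.82 and -0.72, against -0.02 and -0.01 for all genes. *Mylk* and *Des* were the 2 members above WT in each clone. Among the 35 members above the count minimum in every library, 13 were lower and 1 higher in clone 1, and 12 were lower and 1 higher in clone 2.

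Before stimulation fewer members differed. In clone 1, *Mylk*, *Des* and *Fhl2* were higher (3 of 43, with 6.32% of all genes higher), and *Actg2*, *Myl9*, *Csrp2* and *Synpo2* were lower (4, with 8.73% of all lower). In clone 2, 4 members were higher (5.54% of all), namely these 3 and *Smtn*, and 7 were lower (9.56% of all), namely those 4 with *Tagln*, *Pdlim1* and *Fhl1*. The median member stood at -0.02 and -0.24. Among the 35 members above the count minimum in every library, 2 were higher and 1 lower in clone 1, and 3 were higher and 3 lower in clone 2.

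The summed counts of the set depended on *Vim*, which is counted in the intermediate filament class. The 48 genes took 2.02 to 2.05% of all counts in uninduced and 2.25 to 2.36% in stimulated WT libraries. They took 1.85 to 1.89% and then 1.27 to 1.29% in clone 1, and 1.76 to 1.77% and then 1.19 to 1.27% in clone 2. The 46 members outside the intermediate filament class took 1.22 to 1.24% before and 2.06 to 2.16% after stimulation in WT. Without that class the shares were 1.41 to 1.45% and then 1.09 to 1.11% in clone 1, and 1.24 to 1.25% and then 1.05 to 1.11% in clone 2. So without that class the uninduced clones were no longer below WT, and the stimulated clones still were. The 6 actins alone went from 0.346 to 0.383% up to 0.765 to 0.806% in WT, but from 0.482 to 0.505% down to 0.342 to 0.368% in clone 1. In clone 2 the actins held 0.330 to 0.359% before and 0.286 to 0.316% after, and no stimulated KO library reached the lowest stimulated WT library.

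**Figure D2:**
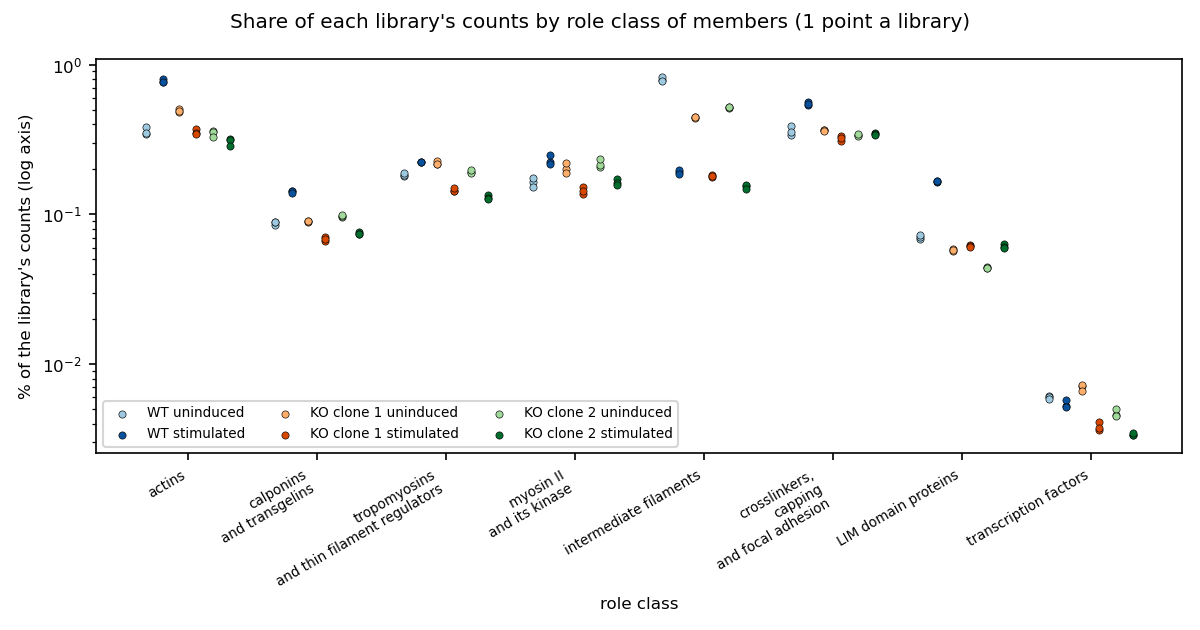
Percent of each library's counts (vertical log axis) taken by the members of each role class (horizontal axis); each point is 1 library, coloured by group, with 3 a group. In the actin class the stimulated WT libraries lie highest, at 0.765 to 0.806%, and the intermediate filament class is lower after stimulation in all 3 genotypes.

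**Figure D3:**
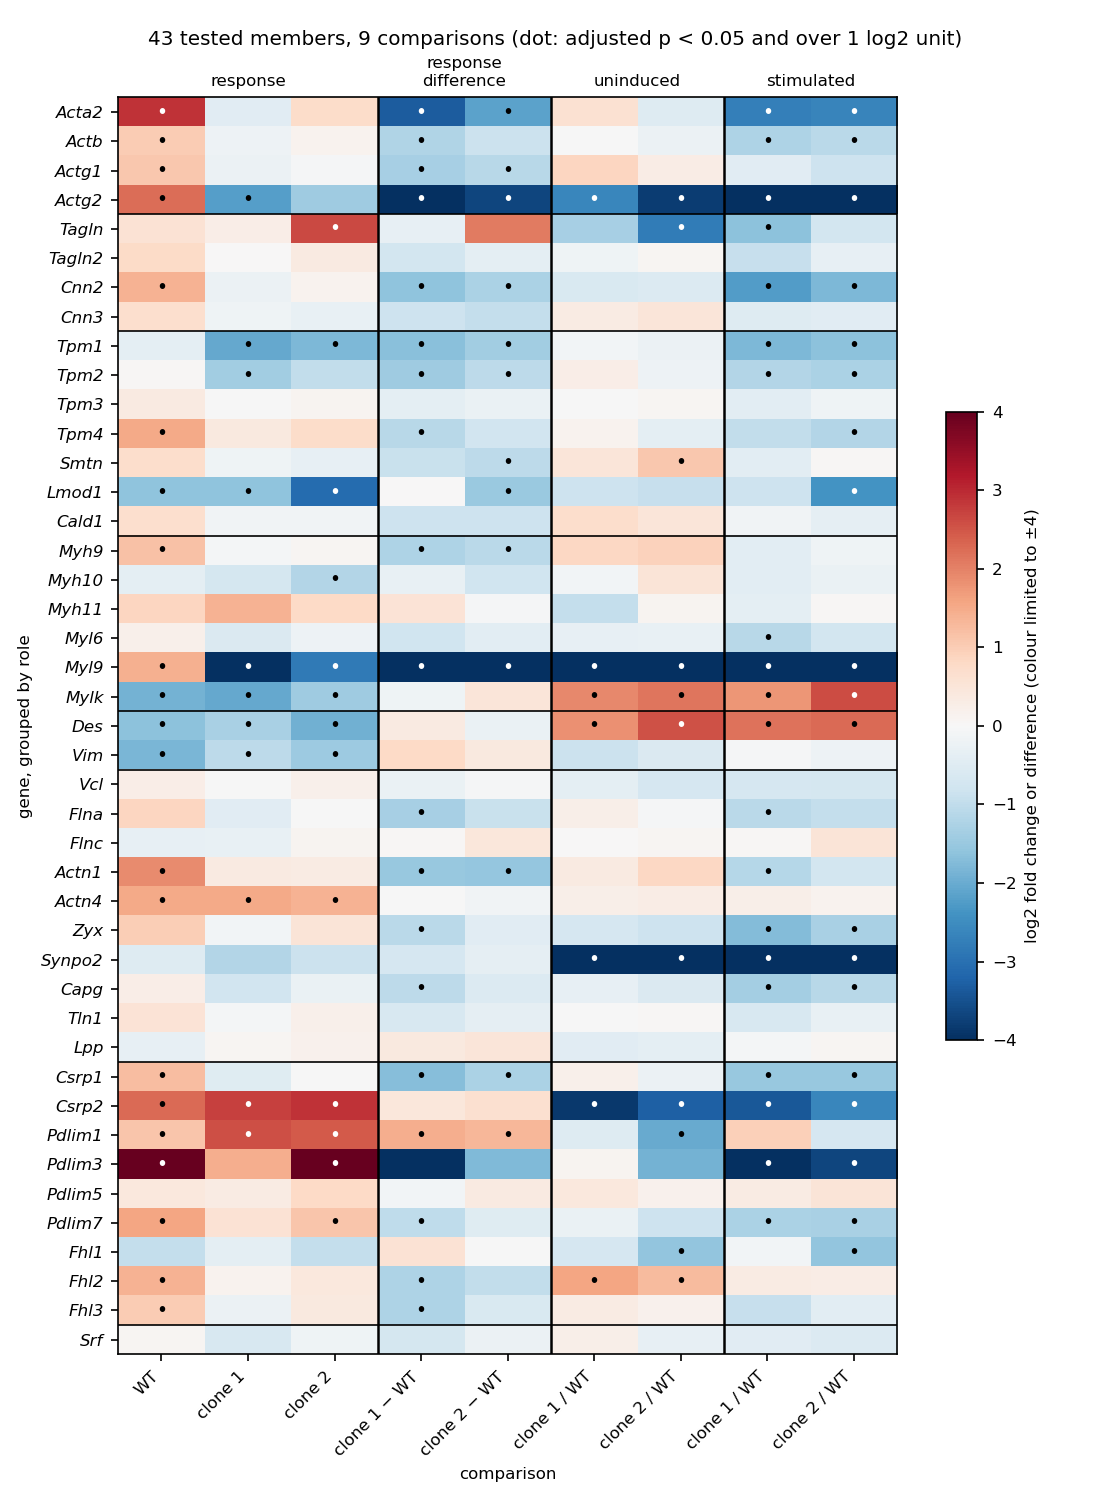
Log2 fold change, or difference of responses, of the 43 tested members (rows, grouped by role) in 9 comparisons (columns), with red higher, blue lower, colour limited at 4 in size, and a dot where the call was made. The first column shows 17 members higher and 4 lower on stimulation in WT, and the columns of response differences show 18 members lower in clone 1 and 12 in clone 2.

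Among the actins, *Acta2* (α-smooth muscle actin, chr19:34241090-34255336, minus strand, mm10), the standard marker of the myofibroblast, rose on stimulation in WT cells. Its CPM in the WT libraries were 253, 292 and 276 before stimulation and 1995, 2133 and 1979 after. In clone 1 they were 415, 414 and 426 before and 316, 302 and 306 after. In clone 2 they were 195, 199 and 186 before and 336, 337 and 297 after. Each stimulated WT library thus lay far above all 12 KO libraries. *Acta2* rose by 2.89 ± 0.05 (log2 fold change ± SE, n = 3 against 3, adjusted p = 4.66e-27) in WT, while its changes in clone 1 (-0.44 ± 0.05) and clone 2 (0.74 ± 0.05) stayed within 2-fold. The response differed from WT by -3.34 ± 0.07 (adjusted p = 3.78e-24) in clone 1 and -2.15 ± 0.07 (adjusted p = 1e-19) in clone 2. The uninduced level was higher than WT by a log2 value of 0.61 in clone 1 and lower by a log2 value of -0.50 in clone 2, neither past 2-fold.

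The cytoplasmic actins moved in the same direction with smaller amplitude. *Actg1* (γ-actin) went from 1329, 1537 and 1191 CPM to 2837, 2884 and 2866 CPM in WT. It went from 2535, 2346 and 2491 to 2213, 2050 and 1996 CPM in clone 1, and from 1731, 1682 and 1534 to 1607, 1700 and 1514 CPM in clone 2. The uninduced clone 1 libraries thus stood between uninduced and stimulated WT, and the groups before and after stimulation overlapped in clone 2. *Actg1* rose by 1.08 ± 0.07 in WT, and the response differences were -1.32 ± 0.10 and -1.12 ± 0.10 in clones 1 and 2. *Actb* (β-actin), often used to normalise expression, rose in WT from 1552, 1659 and 1693 CPM to 3273, 3477 and 3193 CPM. In stimulated cells it was lower in clone 1 (1439, 1449 and 1357 CPM, log2 fold change -1.23) and clone 2 (1619, 1573 and 1481 CPM, -1.09).

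*Actg2* (γ-smooth muscle actin, the enteric isoform) had few counts and was almost absent from stimulated KO cells. It lay at 2.91, 4.04 and 6.82 CPM in uninduced and 21.1, 24.2 and 21.2 CPM in stimulated WT cells. Stimulated clone 1 had 0.106, 0.0737 and 0.319 CPM and stimulated clone 2 had 0.112, 0.131 and 0.12 CPM, with 1.33 CPM the highest of all KO libraries. *Actg2* was lower than WT by -7.04 ± 0.50 and -7.46 ± 0.55 after stimulation and by -2.60 and -3.79 before it. Its passage through the filter came only from the 2 WT groups. The fall called within clone 1 (-2.20, adjusted p = 0.0161) was lost without any of 4 libraries, with adjusted p of 0.0537 to 0.129.

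The calponins, which bind actin filaments and inhibit myosin, split by isoform. *Cnn2* went from 199, 215 and 216 CPM to 551, 566 and 542 CPM in WT. It went from 145, 135 and 133 to 123, 114 and 118 CPM in clone 1, and from 144, 142 and 147 to 164, 164 and 147 CPM in clone 2. All KO libraries lay below all WT libraries at both conditions. The WT rise was 1.40, the stimulated level was lower by -2.23 ± 0.05 (adjusted p = 5.69e-25) and -1.80 (adjusted p = 7.86e-23) in clones 1 and 2, and the response differences were -1.62 ± 0.07 and -1.26 ± 0.07. *Cnn2* lies on chromosome 10, on which the median gene was lower in clone 1 (-0.41 uninduced and -0.43 stimulated) but not in clone 2 (0.07 and 0.05). The part of that shift in the result was not tested, and the median response difference on that chromosome was -0.05 in clone 1 and -0.04 in clone 2.

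*Cnn3*, the acidic calponin, moved by less than 2-fold throughout. It went from 424, 440 and 446 to 712, 694 and 672 CPM in WT, from 538, 556 and 560 to 496, 484 and 487 CPM in clone 1, and from 607, 611 and 611 to 509, 491 and 503 CPM in clone 2. After stimulation the KO libraries lay below WT by -0.50 and -0.47. *Cnn1*, the smooth muscle calponin, was too low to test. Over the 3 libraries its counts were 25, 7 and 9 in uninduced and 11, 12 and 9 in stimulated WT, 0 to 5 in clone 1 and 0 to 6 in clone 2. Against the limit of 3 counts over a group, uninduced WT was at least 12.6-fold higher than uninduced clone 1, and at least 6.77-fold higher without WT uninduced replicate 1. *Tagln* (transgelin) showed 15, 19 and 19 counts in stimulated WT, 6, 7 and 4 in clone 1 and 8, 11 and 5 in clone 2. Its lower call in stimulated clone 1 was lost without any of 6 libraries (adjusted p 0.0586 to 0.114). *Gm48529* and *Pcsk7* on the other strand cover 67.9% of its exonic bases. How reads from those bases were assigned is not known, as the strand setting is not given.

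Tropomyosins stabilise actin filaments and set which myosins and regulators may bind. Unlike *Acta2*, *Tpm1* did not rise in WT cells (490, 535 and 556 CPM before, 394, 410 and 402 CPM after), but it fell in the clones. Clone 1 went from 484, 498 and 471 to 120, 113 and 115 CPM, and clone 2 from 443, 451 and 445 to 137, 132 and 117 CPM. Uninduced WT and clone 1 overlapped and uninduced clone 2 lay just below WT, whereas each stimulated KO library lay below every other library. The fall was -2.06 (adjusted p = 1.06e-23) in clone 1 and -1.80 (adjusted p = 2.02e-22) in clone 2, against -0.39 in WT, and the response differences were -1.67 ± 0.07 and -1.41 ± 0.07.

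*Tpm2* (β-tropomyosin) had a like pattern. It lay at 51.7, 63.5 and 80.8 CPM in uninduced and 66.1, 71.1 and 68.2 CPM in stimulated WT libraries. It fell from 79.9, 83.2 and 73.9 to 31.4, 29.5 and 30.5 CPM in clone 1. In clone 2 it went from 54, 58.3 and 59.6 to 30.3, 29.2 and 26.5 CPM, a change of -0.995 that was not called. The stimulated levels lay below WT by -1.17 and -1.26, and the response differences were -1.44 ± 0.15 and -1.06 ± 0.15. The latter fell to -0.92 without WT uninduced replicate 1. *Tpm4*, a cytoskeletal isoform, rose in WT (208, 216 and 214 to 601, 595 and 616 CPM), and its stimulated level was 311, 293 and 318 CPM in clone 1 and 267, 266 and 271 CPM in clone 2. *Tpm3* passed in no comparison.

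Of the other thin filament regulators, *Smtn* (smoothelin), a marker of contractile smooth muscle, stood at 49, 50.3 and 43 CPM in stimulated WT cells. In clone 1 it went from 39, 41.2 and 40.5 to 35.4, 35.1 and 36.7 CPM, and in stimulated clone 2 it stood at 49.6, 52.5 and 43.5 CPM in stimulated clone 2. The stimulated levels of WT and clone 2 overlapped. Before stimulation *Smtn* was higher in clone 2 (59, 59.3 and 64.8 CPM against 34.2, 26.1 and 26.8 CPM, log2 fold change 1.08). On stimulation it rose in WT and fell in clone 2, without a call in either. Its lower response in clone 2 (-1.04) was not called without any of 4 libraries (-0.9999 to -0.97). *Lmod1* (leiomodin 1), which nucleates actin in smooth muscle, fell on stimulation in all 3 genotypes, and reached 2.69, 3.24 and 3.02 CPM in WT, 1.44, 1.95 and 1.64 CPM in clone 1 and 0.784, 0.262 and 0.601 CPM in clone 2. *Cald1* (caldesmon) was not called in any comparison.

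Myosin II drives contraction, and phosphorylation of its regulatory light chain by myosin light chain kinase switches it on. *Myl9*, the smooth muscle regulatory light chain (chr2:156775420-156781658, plus strand), was nearly absent in both clones. Its counts were 668, 702 and 1166 in uninduced and 2107, 2660 and 2277 in stimulated WT libraries. They were 6, 3 and 7 and then 0, 0 and 0 in clone 1, and 45, 8 and 12 and then 1, 3 and 1 in clone 2. The WT level rose from 38.9, 36.8 and 44.4 CPM to 103, 115 and 103 CPM (1.41 ± 0.11, adjusted p = 4.72e-12). With 0 counts in stimulated clone 1, the stimulated WT level was at least 2422-fold higher, and in stimulated clone 2 it was lower than WT by a log2 fold change of -9.97 ± 0.24.

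The *Myl9* difference was already present before stimulation, at -7.14 ± 0.21 in clone 1 and -5.72 ± 0.17 in clone 2. The nearest genes on each side with a mean above 5 CPM were not called, as *Dlgap4* stood at -0.01 and 0.02 and *Rab5if* at 0.35 and 0.12 in stimulated clones 1 and 2. *Tgif2*, which is nearer but has a mean of 0.968 CPM, stood at -1.91 and -3.53 in the uninduced clones and at -0.66 and -1.35 in the stimulated clones, where the latter was called lower. Since each clone is a single line, a difference that precedes stimulation cannot be told apart from one between clonal lines. This holds for *Myl9* as for *Synpo2* and *Csrp2*. The same limit holds for the differences of response, as each clone is the same line in both conditions. Because *Myl9* passed the count filter only through the WT groups, its difference adds no support to the counts of the set.

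*Mylk*, the kinase of that light chain, moved the other way. It lay at 13.6, 10.2 and 10.7 CPM in uninduced WT, 42.2, 46.4 and 41.4 CPM in uninduced clone 1 and 48.9, 47.6 and 53.9 CPM in uninduced clone 2. On stimulation it fell in all 3 genotypes, to 2.4, 4.19 and 2.57 CPM in WT, 10.5, 11.1 and 9.52 CPM in clone 1 and 17.6, 19.1 and 19.6 CPM in clone 2. Within each condition the genotypes did not overlap, and stimulated *Mylk* was higher than WT by 1.76 ± 0.15 (adjusted p = 2.98e-11) and 2.61 ± 0.15 (adjusted p = 1.95e-15). The responses, -1.89 in WT against -2.06 and -1.41, were not called different.

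*Myh9*, the heavy chain of nonmuscle myosin IIA, rose in WT from 722, 603 and 695 CPM to 1478, 1671 and 1368 CPM. It stood at 1166, 1315 and 1069 and then 1028, 1231 and 1126 CPM in clone 1, and at 1207, 1228 and 1353 and then 1403, 1339 and 1259 CPM in clone 2. The libraries before and after stimulation overlapped in each clone, at levels between uninduced and stimulated WT or reaching the latter in clone 2. The WT rise was 1.16 ± 0.10, with response differences of -1.23 ± 0.14 (adjusted p = 4.36e-06) and -1.08 ± 0.14 (adjusted p = 1.72e-05). The stimulated levels, at -0.42 and -0.18 from WT, were not called. Of the other myosin genes, the light chain *Myl6* was lower in stimulated clone 1 (-1.11), *Myh10* (nonmuscle myosin IIB) fell on stimulation in clone 2 (-1.18), and *Myh11*, the smooth muscle heavy chain, was not called in any comparison. *Myh9* lies on chromosome 15, where the median gene was higher in the clones (0.46 uninduced in each, 0.45 and 0.43 stimulated).

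Both intermediate filament genes were called lower on stimulation in all 3 genotypes, *Des* from few counts. *Vim* (vimentin), the filament protein of mesenchymal cells, fell from 7173, 7579 and 7022 to 2019, 2098 and 1965 CPM in WT. It fell from 4076, 3956 and 4074 to 1974, 1933 and 1922 CPM in clone 1, and from 4832, 4870 and 4790 to 1737, 1810 and 1709 CPM in clone 2. The log2 changes were -1.84, -1.05 and -1.46, and the response differences of 0.79 and 0.38 were not called. *Des* (desmin), of muscle cells, did not exceed 3.36 CPM in any library. Its counts in WT were 0, 18 and 13 before and 2, 4 and 4 after stimulation, and its WT call was lost without any of 12 libraries.

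**Figure D4:**
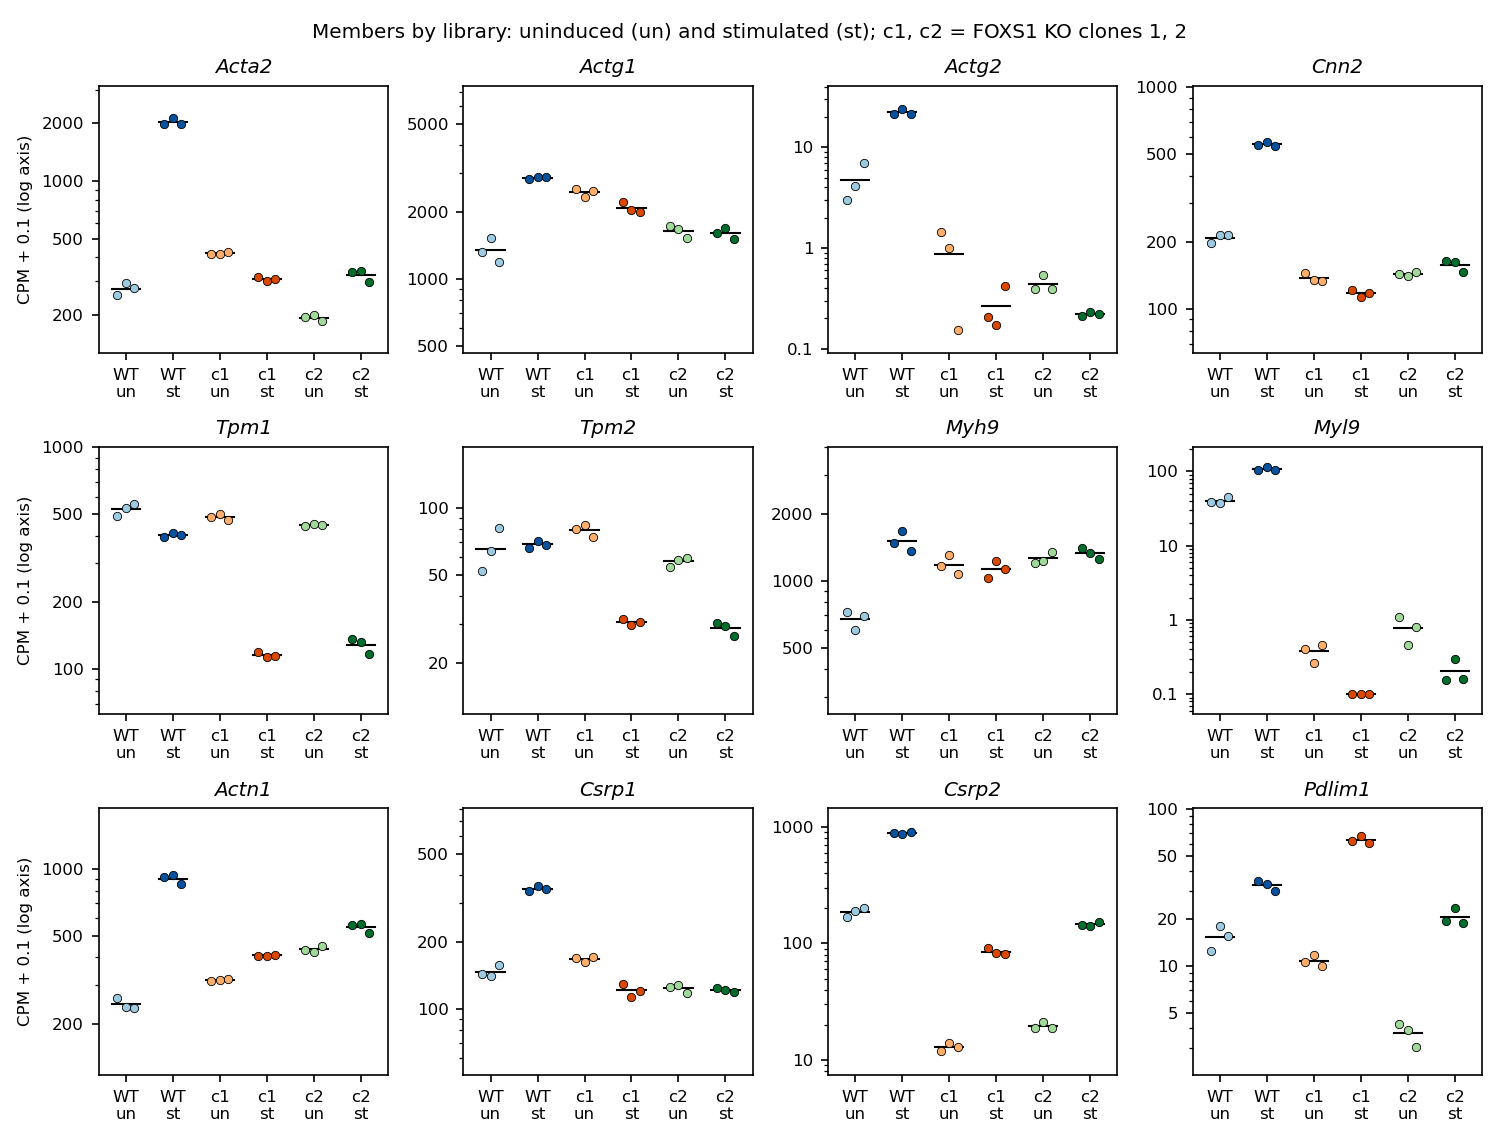
CPM + 0.1 (log axis) of 12 members in every library, by group; points are libraries and horizontal bars group means. *Acta2*, *Cnn2*, *Csrp1* and *Actn1* in stimulated WT lie above every KO library, *Tpm1* and *Tpm2* are lowest in the stimulated KO libraries, *Myl9* and *Actg2* are near 0 in stimulated KO libraries, and *Pdlim1* is higher after stimulation in all 3 genotypes.

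Of the crosslinking, capping and focal adhesion genes, 5 of 10 were lower in stimulated clone 1 (*Flna*, *Actn1*, *Zyx*, *Synpo2*, *Capg*) and 3 of 10 in stimulated clone 2 (*Zyx*, *Synpo2*, *Capg*). *Actn1* (α-actinin 1), a crosslinker of stress fibers, went from 262, 238 and 235 CPM to 922, 944 and 852 CPM in WT. It went from 314, 317 and 318 to 407, 406 and 411 CPM in clone 1, and from 432, 422 and 450 to 560, 564 and 515 CPM in clone 2. The WT rise of 1.89 ± 0.05 was larger than in the clones, with response differences of -1.52 ± 0.07 and -1.56 ± 0.07. Its paralog *Actn4* (α-actinin 4) behaved differently, reaching 705, 740 and 695 CPM in WT, 869, 825 and 809 CPM in clone 1 and 852, 793 and 729 CPM in clone 2. *Actn4* rose in each genotype (1.53, 1.51 and 1.38), and the response differences were -0.02 and -0.15.

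*Zyx* (zyxin), which marks mature focal adhesions, went from 257, 271 and 265 to 516, 536 and 520 CPM in WT. It went from 178, 163 and 160 to 160, 159 and 151 CPM in clone 1, and from 146, 150 and 154 to 231, 216 and 199 CPM in clone 2. The KO libraries lay below WT in each condition with no overlap, and the stimulated level was lower by -1.74 and -1.28. *Capg*, which caps the barbed ends of filaments, went from 126, 121 and 134 to 159, 148 and 154 CPM in WT, from 103, 99.3 and 103 to 63.6, 61.5 and 54.3 CPM in clone 1, and from 79.8, 89 and 87.5 to 76.1, 67.5 and 69.7 CPM in clone 2. Its stimulated level was lower by -1.36 and -1.11, and its lower response in clone 1 (-1.04) fell to -0.97 without KO clone 1 stimulated replicate 3. *Synpo2* (synaptopodin 2, chr3:123076519-123236149, minus strand), of the Z-disc and dense bodies, lay between 10 and 17 CPM in all WT libraries and at 0.307 CPM or less in all KO libraries. It was lower than WT both before (-6.20 and -6.11) and after stimulation (-6.88 and -6.46), and its response was not called different (adjusted p = 0.499 and 0.742). Of its neighbours, *Pde5a* (-1.38 and -1.83) and *Prss12* (-1.97 and -2.77) were also lower in the stimulated clones, while *Sec24d* (-0.41 and -0.62) and *Usp53* (0.80 and 0.31) were not called. *Flnc* (filamin C), by contrast, stood at 185, 196 and 176 CPM in stimulated WT, 164, 218 and 193 CPM in clone 1 and 248, 266 and 278 CPM in clone 2. It did not pass the call in stimulated clone 1 (0.05, adjusted p = 0.675) or clone 2 (0.51), and neither did *Vcl*, *Tln1* or *Lpp*, which link integrin adhesions to actin.

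Of the 9 tested LIM domain genes, 7 rose in WT. *Csrp1*, a smooth muscle cysteine-rich protein that binds α-actinin, went from 143, 140 and 157 CPM to 338, 358 and 348 CPM in WT. In clone 1 it went from 169, 162 and 172 to 130, 113 and 120 CPM, and in clone 2 from 125, 127 and 118 to 124, 121 and 118 CPM. The stimulated WT libraries lay above all others, and the response differences were -1.72 ± 0.08 and -1.27 ± 0.08.

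*Csrp2* (chr10:110919789-110939622, plus strand) had a lower level in the clones but not a smaller fold response. It lay at 169, 188 and 201 and then 894, 871 and 901 CPM in WT. It lay at 11.9, 13.8 and 12.8 and then 91, 82.1 and 80.9 CPM in clone 1, and at 18.8, 21.3 and 18.7 and then 145, 140 and 152 CPM in clone 2. Every stimulated KO library was below every uninduced WT library. *Csrp2* rose by 2.25 in WT, 2.72 in clone 1 and 2.90 in clone 2, while the stimulated level was lower by -3.39 ± 0.06 (adjusted p = 2.99e-27) and -2.61 ± 0.06 (adjusted p = 8.37e-25). It shares chromosome 10 with *Cnn2*, and its nearest tested neighbour *Zdhhc17* stood at -0.97 in stimulated clone 1 and -0.14 in clone 2.

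*Pdlim1* (CLP36, a PDZ and LIM protein that binds α-actinin) was the member with a larger response in the clones. It went from 12.3, 17.7 and 15.4 to 34.5, 33.3 and 30.1 CPM in WT, from 10.5, 11.6 and 9.89 to 62.3, 66.7 and 60.8 CPM in clone 1, and from 4.15, 3.81 and 2.96 to 19.2, 23.4 and 18.6 CPM in clone 2. Stimulated clone 1 thus lay above and stimulated clone 2 below stimulated WT. The response differences were 1.47 ± 0.16 (adjusted p = 1.53e-08) and 1.34 ± 0.18 (adjusted p = 4.42e-07).

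*Pdlim7* (enigma) reached 193, 200 and 187 CPM in stimulated WT against 70.1 to 91.4 CPM in the 6 stimulated KO libraries. Its lower response in clone 1 (-1.003) fell short of 2-fold without any of 4 libraries (-0.98 to -0.90). *Pdlim3* (ALP), of the muscle Z-line, had 54, 36 and 31 counts in stimulated WT libraries and 0 to 4 counts in every other library, and passed the filter through that group alone. *Fhl2*, a coactivator at focal adhesions and in the nucleus, was higher in the clones before stimulation (15.7, 23.5 and 18.4 CPM in WT, 58.9, 54.9 and 59 CPM in clone 1, 48.1, 45.7 and 45.6 CPM in clone 2). After stimulation it stood at 52.5, 50.9 and 48 CPM in WT and 58.9 to 67.2 CPM in the clones. *Pdlim5* stood at 142, 153 and 152 CPM in stimulated WT, 171, 198 and 192 CPM in clone 1 and 217, 218 and 211 CPM in clone 2. It lay above WT in each clone, by 0.33 and 0.53, within 2-fold.

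*Srf* itself moved by less than 2-fold. It lay at 54.9, 55.4 and 53 and then 55.8, 60.4 and 54.6 CPM in WT, at 65.3, 65.6 and 60.8 and then 39.1, 44.3 and 39.9 CPM in clone 1, and at 42.6, 46.9 and 41.6 and then 38.1, 38.4 and 39.9 CPM in clone 2. The stimulated KO libraries lay below stimulated WT, by -0.47 and -0.55, and *Srf* was not called in any comparison. By adjusted p alone, without the fold threshold, it differed from WT in each clone at both conditions. It then also changed on stimulation in each clone but not in WT, and its response differed from WT in clone 1. *Myocd* (myocardin) was too low to test, with 7, 0 and 4 counts in uninduced WT and none elsewhere.

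The make-up of each family was compared per length, as the percent of the family's summed CPM per kilobase. *Acta2* made up 12.05% of actin transcripts in uninduced WT and 32.9% in stimulated WT cells. It made up 13.35% and then 11.6% in clone 1, and 8.66% and then 13.3% in clone 2. Thus the stimulated WT libraries had the highest *Acta2* share of the 6 groups, with a summed actin level of 3471 CPM per kilobase against 1486 and 1368 in stimulated clones 1 and 2. *Actg1* held 31.04% of actins in stimulated WT and 52.8% and 44.2% in the stimulated clones.

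Tropomyosin make-up shifted from *Tpm1* to *Tpm4* on stimulation. *Tpm1* went from 33.8% to 15.1% in WT, from 30.3% to 8.67% in clone 1 and from 33.6% to 10.1% in clone 2. *Tpm4* went from 40.2% to 66.6%, from 42.8% to 67.5% and from 35.9% to 61.7%. Among calponins and transgelins together, *Cnn2* held 39.3% in stimulated WT but 17.7% and 19.9% in the clones, with *Cnn3* in part under another gene. *Myh9* made up 90.6%, 90.7% and 91.1% of its family with *Myh10* in stimulated WT, clone 1 and clone 2. The exact permutation test of 3 libraries against 3 (two-sided) cannot go below p = 0.1, and over the 126 family shares tested the smallest adjusted p was 0.145, so these shares are descriptive.

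**Figure D5:**
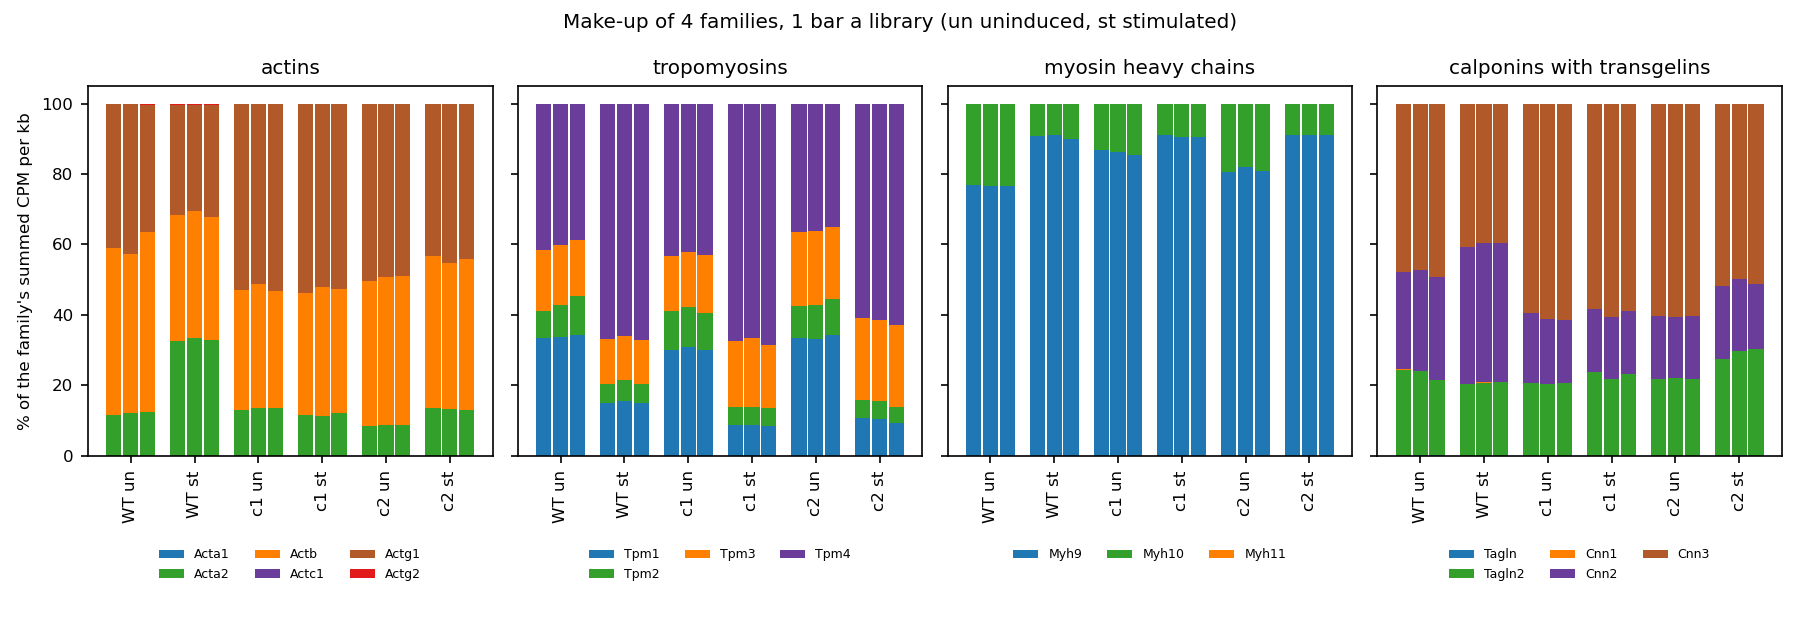
Percent of a family's summed CPM per kilobase contributed by each gene (colours), with 1 stacked bar a library and 3 libraries in each of the 6 groups (un, uninduced; st, stimulated; c1 and c2, the KO clones). *Acta2* takes a mean of 32.9% of actins in stimulated WT and 8.66 to 13.35% in the other 5 groups.

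The clones were compared with each other after stimulation. Of the 43 members, *Lmod1*, *Pdlim1* and *Fhl1* were higher in clone 1 (3, with 5.5% of all genes higher) and *Myl9* was lower (1, with 4.48% of all lower). *Pdlim1* differed by 1.64 ± 0.11. *Fhl1*, a muscle LIM protein, was lower than WT in clone 2 (-1.58) and was not called in clone 1 (-0.11). The *Myl9* call rests on 0, 0 and 0 against 1, 3 and 1 counts, and was lost without any of 3 libraries (adjusted p 0.0537 to 0.115).

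The 5 members too low to test had few counts in any group. *Pdlim4* (RIL), a PDZ and LIM protein, had 5, 4 and 7 and then 4, 1 and 6 counts in WT, 0, 2 and 1 and then 0, 0 and 0 in clone 1, and 15, 11 and 6 and then 0, 2 and 0 in clone 2. Each clone 1 library had fewer counts than any WT library of the same condition. Scaled to depth, uninduced clone 2 (0.335, 0.487 and 0.348 CPM) lay above uninduced WT (0.291, 0.210 and 0.267 CPM), while stimulated clone 2 overlapped with stimulated WT. The striated actins *Acta1* and *Actc1* did not exceed 22 and 7 counts.

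Known targets of TGF-β signaling were compared beside the set, and differed among themselves. *Skil* (SnoN), a feedback inhibitor of SMADs, rose by 3.06 ± 0.08 in WT, 3.37 ± 0.09 in clone 1 and 3.75 ± 0.08 in clone 2. *Smad7*, the inhibitory SMAD, rose by 1.55 ± 0.12, 1.21 ± 0.13 and 1.68 ± 0.12, *Ltbp2*, a matrix protein, by 1.54 ± 0.05, 1.98 ± 0.05 and 2.02 ± 0.05, and *Pmepa1*, which also restrains the pathway, by 5.53 ± 0.06, 5.37 ± 0.07 and 5.74 ± 0.07. None of these 4 had a called response difference in either clone. *Ctgf* (connective tissue growth factor) rose by 3.79 ± 0.15 in WT, 2.94 ± 0.16 in clone 1 and 4.67 ± 0.16 in clone 2, with differences of response within 2-fold. Its level was nevertheless lower than WT in uninduced clones 1 and 2 (-1.24 and -1.80) and in stimulated clone 1 (-2.09), and stood at -0.91 in stimulated clone 2. *Tgfbi* and *Postn* (periostin), both of the extracellular matrix, were not called on stimulation in WT (0.02 and 0.00). *Tgfbi* was lower than WT in clones 1 and 2 before (-12.05 and -4.96) and after stimulation (-11.38 and -9.19), and its response was lower in clone 2 (-4.23). *Postn* stood at -1.05 and -0.91 before and at -0.96 and -1.41 after stimulation, of which the first and the last were called.

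Of 26 tested genes in a wider list of actin binding and focal adhesion genes, 5 were higher and 5 lower in stimulated clone 1 (9.42% and 9.6% of all genes), and 3 were higher and 4 lower in clone 2 (7.95% and 8.94% of all). The lower ones held *Nexn* (nexilin, an actin filament binder, -3.50 and -2.60), *Palld* (palladin of stress fibers, -2.32 and -2.23), *Ldb3* (of the Z-disc, -2.28 and -2.21) and *Lims2* (a focal adhesion LIM protein, -1.98 and -1.92). The higher ones held *Ablim1* (actin binding LIM protein 1, 2.12 and 3.03), *Tns1* (tensin 1, 1.70 and 3.33) and *Sorbs3* (vinexin, 1.25 and 1.36). The median of this list was -0.45 in clone 1 and -0.24 in clone 2.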

How the data were processed

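Poly(A) RNA-seq libraries of the 18 samples were sequenced as paired 150-base reads. Per the labels and methods, the authors aligned reads with HISAT2 to mm10 (GRCm38), and deposited raw counts per gene in 1 table. For the counting program, the annotation release and whether strand was used, the record is: not given in the sources used here. All columns mapped to samples through their titles, and groups come from the labels. The table's gene coordinates were checked against GENCODE M21, which has 54495 of the 54532 identifiers and the same coordinates for 47 of the 48 members.

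From the deposited counts, edgeR 4.0.16 (R 4.3.3; limma 3.58.1) fitted all 6 groups in 1 model: TMM scaling, filterByExpr with min.count 10 (0.496 CPM), robust quasi-likelihood tests, Benjamini-Hochberg adjustment over the 14317 genes tested. A DEG had adjusted p below 0.05 and a log2 fold change beyond 1 in size. Of the 43 tested members, 35 passed that minimum in all 18 libraries. *Pdlim3* and *Tagln* did so only through stimulated WT, *Synpo2*, *Actg2* and *Myl9* only through the WT groups, *Myh11* through stimulated clone 2, and *Des* through KO groups. CPM use TMM-scaled library sizes, SEs come from the quasi-likelihood F, and levels are compared between genes per kilobase of the deposited gene length. Limits on a count of 0 cover counting error only.

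The members, gene lists and tests were chosen with earlier results of these data known. Members described were, by rule, *Acta2*, *Capg*, *Pdlim4*, *Tagln*, *Tpm1* and *Tpm2*; in each role class, the tested member with the largest and the smallest stimulated log2 fold change (mean of the clones, at least 5 CPM); those with a called response difference in both clones; and the most abundant per length in each family. *Actb*, *Synpo2*, *Des*, *Lmod1*, *Pdlim3*, *Pdlim7*, *Actn4*, *Fhl1*, *Fhl2* and *Cnn1* were added after their values were seen, as were the genes named from the lists. Some items of the gene lists are not reported here.  Alternatives were DESeq2 1.42.0, DESeq2 size factors, library totals, a 1 CPM filter, no filter, fits of the compared groups only, glmTreat, no fold threshold, a replicate block and leaving out each library. The fit was tested on simulated data first. The smallest p of 3 libraries against 3 in the exact test is 0.1.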

Additional observations from a re-analysis of the deposited data

Results flagged for a closer look

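The response to stimulation differed between a clone and WT for 19 members in clone 1 and 13 in clone 2, each by the interaction test of edgeR (adjusted p below 0.05 and a log2 difference beyond 1 in size). In clone 1 the differences were -3.34 for *Acta2*, -1.21 for *Actb*, -1.32 for *Actg1* and -4.44 for *Actg2*. They were -1.62 for *Cnn2*, -1.67 for *Tpm1*, -1.44 for *Tpm2*, -1.11 for *Tpm4*, -1.23 for *Myh9* and -7.03 for *Myl9*. They were -1.33 for *Flna*, -1.52 for *Actn1*, -1.08 for *Zyx*, -1.04 for *Capg* and -1.72 for *Csrp1*. Among the other LIM domain genes they were 1.47 for *Pdlim1*, -1.003 for *Pdlim7*, -1.24 for *Fhl2* and -1.24 for *Fhl3*.

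In clone 2 the differences were -2.15 for *Acta2*, -1.12 for *Actg1*, -3.67 for *Actg2*, -1.26 for *Cnn2*, -1.41 for *Tpm1* and -1.06 for *Tpm2*. They were -1.08 for *Myh9*, -4.25 for *Myl9*, -1.04 for *Smtn*, -1.48 for *Lmod1*, -1.56 for *Actn1*, -1.27 for *Csrp1* and 1.34 for *Pdlim1*. The values of *Actg2* and *Myl9* rest on KO libraries with few or no counts and depend on the prior count of the fit. Both clones share the WT libraries, so the lists are not independent.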

How the results depend on the processing

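For the members described by rule, no call reversed direction under any alternative run. Values that were not called, and medians, were outside this check. In the clone 2 response, 6 members higher and 7 lower became 19 and 15 without a fold threshold. With library totals they became 5 and 9. The counts of called members kept within 1.5 times of the reported counts except where the fold rule changed. Without a fold threshold (adjusted p alone), the counts were 35 and 34 in uninduced clones 1 and 2, 38 and 38 in stimulated clones 1 and 2, and 38, 30 and 34 for the response in WT, clone 1 and clone 2. They were then 31 and 32 for the response differences and 25 between the clones. With glmTreat, which tests against a 2-fold change, the response differences gave 12 and 6 members and the comparison between clones 2. Without division by length, *Acta2* made up 24.7% of actin counts in stimulated WT instead of 32.9%.

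Leaving out single libraries gave 7 to 8 and 11 to 12 members in uninduced clones 1 and 2, 19 to 21 and 19 to 20 in stimulated clones 1 and 2, and 18 to 22, 9 to 11 and 12 to 14 for the responses in WT, clone 1 and clone 2. The response differences gave 17 to 20 and 12 to 14 and the comparison between clones 3 to 4. With the replicate number as a block, the counts were 7, 11, 20, 19, 19, 11, 13, 19, 13 and 4 in the order uninduced clones, stimulated clones, responses in WT, clone 1 and clone 2, response differences and between clones. The block cost the calls of *Des* and *Fhl3* in the WT response and no other. The numbers are not taken as pairs, since over 45 same-number pairs the deviations from group means correlated at -0.106 to 0.076.

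Fits of the compared groups alone cost the calls of *Actg2* and *Myl9* in the clone 1 response and of *Tagln*, *Myl9* and *Pdlim3* in the clone 2 response. They also cost those of *Des* in the WT response and in stimulated clone 2, *Tagln* in uninduced clone 2 and *Myl9* between the clones. Without the count filter, *Cnn1* was lower in both clones in each condition, and *Tagln* was not called in stimulated clone 1. *Acta1* was then lower in both stimulated clones, and its response in clone 2 was lower and differed from WT. *Pdlim4* was lower in stimulated clone 1 and *Actc1* higher in stimulated clone 2, all from few counts. The limits are set by low counts for *Tagln*, *Actg2*, *Des*, *Pdlim3* and *Myl9* in the clones, and by values just past 2-fold for *Actb*, *Fhl3*, *Pdlim7*, *Capg*, *Smtn* and *Tpm2*.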
